A study of Mus musculus with 2 samples.

Results

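The 30 genes described here encode the enzymes, regulators and transporters of cholesterol and fatty acid synthesis, and they were chosen by symbol from a list of 30 among the 32285 genes in the count tables. The cells were live CD45+ cells (CD45 is a surface protein of leukocytes) sorted out of liver tumours in C57BL/6 mice, and their RNA was counted cell by cell with the 10x Genomics 3′ v3 kit. Each group had 1 library and no replicate. The tumours grew from luciferase-labelled RIL-175 cells, a mouse hepatocellular carcinoma line implanted in the liver, and both groups were kept on an MCD diet, which lacks methionine and choline and is used to bring on fatty liver disease. The AKK group received 5e9 colony-forming units of the gut bacterium Akkermansia muciniphila by mouth and the PBS group received phosphate-buffered saline. Feeding started 2 weeks ahead of the diet and went on during it, implantation followed after 2 weeks of diet, and feeding paused for 6 days after surgery before it was taken up again. The sources used here do not give the number of mice behind each library, their age or their sex. Since each group had 1 library, no difference between groups could be tested, "higher" and "lower" compare the libraries as they are, and the intervals in parentheses (95%) hold for counting error alone.

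Cells make cholesterol from acetyl-CoA through the mevalonate pathway, in which squalene is formed, closed to lanosterol and trimmed to cholesterol. Fatty acids are made from the same acetyl-CoA by carboxylation, chain building, elongation and desaturation. Both arms are switched on by SREBP transcription factors, which INSIG proteins hold in the endoplasmic reticulum when sterols are plentiful. Macrophages are known for the opposite traffic: the transporters ABCA1 and ABCG1, targets of the sterol-sensing LXR receptors, carry surplus cholesterol out to lipoproteins. The list held 17 sterol synthesis enzymes, 3 regulators (Srebf1, Srebf2, Insig1), 2 sterol carriers (Stard4, Tmem97), 6 fatty acid synthesis enzymes (Acly, Acaca, Fasn, Scd1, Scd2, Elovl6) and 2 exporters (Abca1, Abcg1).

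The promoters show which sequence motif these genes often share. SREBPs are known to act together with NF-Y, the factor that binds the CCAAT box. RefSeq promoters on GRCm38.p6 were on hand for 23 of the 30 genes, in 28 windows, and the 250 bases before each start were searched on both strands. CCAAT was found in 19 of the 28 windows and in 18 of the 23 genes, against 33.8% of all 32851 windows and 37.5% of all genes in the table. The sterol response element TCACNCCAC was found in 1 gene, Hmgcs1, against 1.05% of all windows, and the E-box CACGTG in 5 of the 28 windows against 6.02%. A match of letters describes the window and does not show that a factor binds there. Below stand the 4 promoters, of genes higher in the tumour cells of the AKK library, that were in the table, and then that of Hmgcs1, the enzyme that makes HMG-CoA at the head of the mevalonate pathway. Each runs 5′ to 3′ on the gene's strand up to the base before its RefSeq start. Capitals mark CCAAT in either orientation, the E-box and the sterol response element.
Idi1 (chr13:8885356-8885605, + strand): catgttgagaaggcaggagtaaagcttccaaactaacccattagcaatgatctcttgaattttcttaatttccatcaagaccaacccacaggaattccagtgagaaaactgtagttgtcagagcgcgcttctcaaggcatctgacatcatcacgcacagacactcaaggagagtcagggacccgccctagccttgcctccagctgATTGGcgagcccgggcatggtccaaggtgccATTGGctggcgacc
Nsdhl (chrX:72918271-72918520, + strand): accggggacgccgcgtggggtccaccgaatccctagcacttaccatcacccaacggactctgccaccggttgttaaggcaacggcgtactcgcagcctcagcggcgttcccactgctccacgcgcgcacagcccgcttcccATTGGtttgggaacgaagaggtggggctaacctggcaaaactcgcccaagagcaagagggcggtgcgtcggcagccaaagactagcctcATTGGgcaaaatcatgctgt
Hsd17b7 (chr1:169969206-169969455, - strand): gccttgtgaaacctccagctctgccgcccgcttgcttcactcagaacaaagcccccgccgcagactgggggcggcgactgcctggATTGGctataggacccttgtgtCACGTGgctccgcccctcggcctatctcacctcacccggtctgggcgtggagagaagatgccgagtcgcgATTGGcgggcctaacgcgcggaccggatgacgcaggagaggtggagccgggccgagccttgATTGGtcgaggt
Insig1 (chr5:28071162-28071411, + strand): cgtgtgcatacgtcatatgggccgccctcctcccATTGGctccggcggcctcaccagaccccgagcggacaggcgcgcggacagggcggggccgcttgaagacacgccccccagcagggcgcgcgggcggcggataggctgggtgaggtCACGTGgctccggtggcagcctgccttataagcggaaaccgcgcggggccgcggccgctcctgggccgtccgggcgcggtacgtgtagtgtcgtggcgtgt
Hmgcs1 (chr13:119690101-119690350, + strand): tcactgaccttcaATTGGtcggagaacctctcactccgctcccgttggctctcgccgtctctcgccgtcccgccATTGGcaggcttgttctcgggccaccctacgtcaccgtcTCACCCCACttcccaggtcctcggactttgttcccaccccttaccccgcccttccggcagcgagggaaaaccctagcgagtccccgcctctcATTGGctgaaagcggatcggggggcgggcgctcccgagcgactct
The windows of Idi1 and Nsdhl held 2 CCAAT boxes each, and those of Hsd17b7 and Hmgcs1 held 3 each. Insig1 held 1, beside an E-box that starts 101 bases before its RefSeq start. The sterol response element of Hmgcs1 began 137 bases before the start. Among the enzymes whose windows held none of the 3 motifs were Acly, Acaca, Acat2 and Elovl6. The Acaca window (chr11:84195188-84195437) lay inside the gene, which starts at 84129672 on the + strand, so it does not describe the bases before that start. Other windows reached into the gene as annotated, among them those of Idi1 (gene start 8885501), Insig1 (28071363) and Hsd17b7 (169969241, - strand). Both CCAAT boxes of Idi1 and the last of Hsd17b7 lay in such a part.

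The PBS library held 5088 barcodes and 64731604 UMIs (unique molecular identifiers, each 1 captured transcript), and the AKK library 6610 barcodes and 74495998 UMIs. Filters left 4636 cells of the PBS and 6172 of the AKK library, which shared 8 barcodes. Cells were clustered without the 30 genes and named by markers, each name meaning "X-like". Levels are counts per 1000000 UMIs of the class (CPM). Of the 30 genes, 7 overlap a gene on the opposite strand (Hmgcs1, Fdft1, Lss, Cyp51, Srebf1, Acaca and Elovl6), and the sources used here do not say whether counting used strand, so reads of such partners cannot be told apart. Reads of Scd1 and Scd2, of Acat2 and of Fdps could also be split with near copies.

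The tumour/epithelial-like cells numbered 155 in the PBS and 110 in the AKK library, although the sort was for CD45+ cells. Their keratin genes were high, with Krt8 at 2100 CPM in the PBS and 2109 CPM in the AKK library, and 6 of their 7 markers had UMIs (Cldn4 had none). Epcam had 1 and 5 UMIs. Ptprc, which encodes CD45, was at 30.4 and 43.7 CPM there against 363 or more in every leukocyte class, and 6 hepatocyte markers summed to 2.65 and 2.05 CPM. These cells were deep, with medians of 74344 and 77432 UMIs. RNA of the tumour markers was also counted in leukocytes: the tumour markers summed to between 1.11% and 4.85% of their tumour level in the 7 leukocyte classes compared here.

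Among the 8 classes that reached 100 cells in both libraries, sterol synthesis genes were highest in tumour cells and genes of export in macrophages and B cells. Of the 17 sterol synthesis enzymes, 12 were higher in tumour/epithelial-like cells than in each of the 7 leukocyte classes in both libraries. The 17 enzymes together took 5.45 of every 10000 UMIs of tumour cells in the PBS library (5.31 to 5.59) and 7.52 in the AKK library (7.34 to 7.71). In the 7 leukocyte classes they took between 1.48 (neutrophils, AKK) and 3.63 (myeloid precursors, AKK). Plasmacytoid dendritic cells, with fewer cells, had a larger share than tumour cells, as given below. The 6 fatty acid synthesis genes took 6.76 and 11.7 per 10000 UMIs in tumour cells and 6.60 and 6.96 in B cells, with overlapping intervals in the PBS library (6.61 to 6.91 and 6.18 to 7.03), and under 5 in the other 6 classes. The 2 exporters took 8.77 and 6.46 in macrophages and 7.60 and 7.46 in B cells, but 0.450 and 0.540 in tumour cells, the lowest of the 8 classes in each library.

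**Figure D1:**
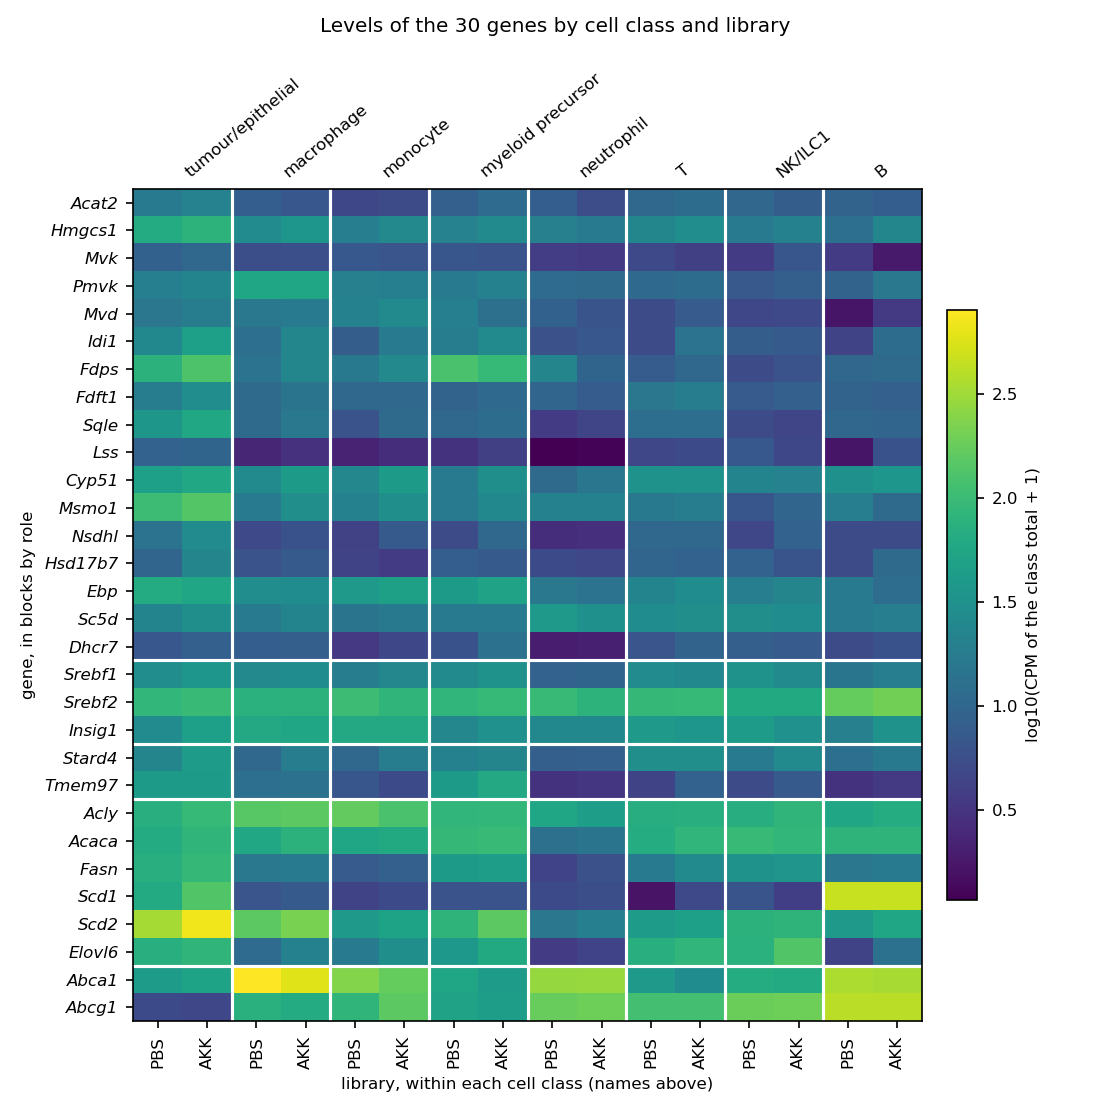
Level of each of the 30 genes (rows, in blocks by role) in 8 cell classes, PBS and AKK side by side, as log10 of CPM + 1 by colour. The tumour/epithelial columns are bright for Msmo1, Fdps and Scd2, the B columns for Scd1 (467 and 468 CPM), and the macrophage columns for Abca1 (805 and 583 CPM).

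Msmo1, Scd2 and Sqle stood highest in tumour cells relative to leukocytes. Msmo1 encodes the methyl sterol oxidase that removes methyl groups from lanosterol's descendants. It was at 102 CPM in PBS and 140 CPM in AKK tumour cells, 6.48 and 7.17 times the mean of the 7 leukocyte classes, whose highest levels were 19.6 and 28.9 CPM, in monocytes. Sqle, squalene epoxidase, was at 36.3 and 55.7 CPM in tumour cells, 4.88 and 6.15 times that mean. Scd2, a stearoyl-CoA desaturase that makes monounsaturated fatty acids, was at 336 and 694 CPM, 5.30 and 7.85 times the mean and above macrophages at 153 and 214 CPM. None of the 7 leukocyte classes compared here reached the tumour level of these 3 genes in either library, while plasmacytoid dendritic cells, with fewer cells, had Sqle at 46.04 and 50.02 CPM.

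A few synthesis genes went the other way. Pmvk, phosphomevalonate kinase, was at 55.2 and 54.9 CPM in macrophages and at 18.5 and 21.4 CPM in tumour cells. Acly, the enzyme that frees acetyl-CoA from citrate, was highest in monocytes of the PBS library, at 166 CPM, and in macrophages of the AKK library, at 155 CPM, against 71.5 and 92.1 CPM in tumour cells. Fdps, which makes farnesyl diphosphate, was highest in myeloid precursors of the PBS library (122 CPM against 77.4 in tumour cells) and in tumour cells of the AKK library (128 CPM against 93.2 in precursors).

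Counted gene by gene, 24 of the 30 were at least 1.5-fold higher in tumour cells than in neutrophils in the PBS library and 26 in the AKK library, where 48.1% and 49.7% of all measured genes were. Against macrophages, 16 and 17 of 30 were, with a background of 34.3% in each library. Against T cells, 13 and 19 of 30 were (backgrounds of 32.1% and 32.2%), and against myeloid precursors 13 and 15 (26.9% and 26.6%). Against monocytes the counts were 18 and 17 (40.7% and 40.1%), against NK/ILC1 cells 17 and 20 (35.1% and 36.5%), and against B cells 20 and 19 (39.3% and 39.7%). Fewer genes were lower in tumour cells: against neutrophils of the AKK library 2 of 30 were, where 21.7% of all measured genes were lower. These shares stand above the background for the higher genes in each of the 14 comparisons, by the least against T cells of the PBS library (13 of 30). The summed share of all 30 genes in tumour cells was 0.866 of that in macrophages in the PBS library (0.847 to 0.884) and 1.36 times it in the AKK library (1.33 to 1.39). Against B cells the same ratios were 0.821 (0.787 to 0.856) and 1.18 (1.14 to 1.22).

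**Figure D2:**
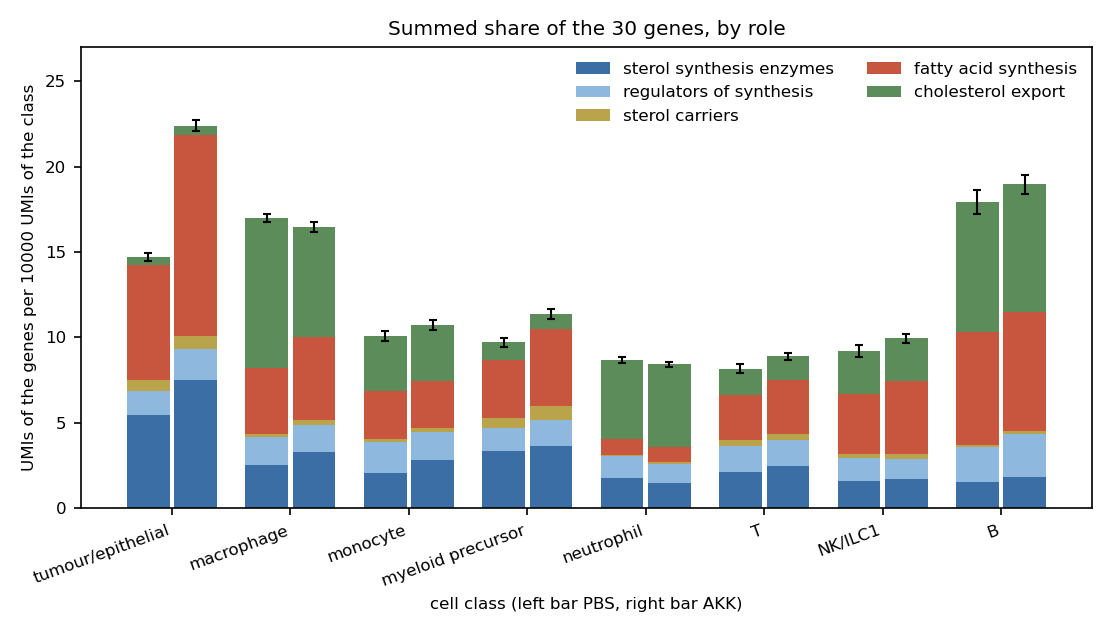
UMIs of the 30 genes per 10000 UMIs of each cell class, stacked by role, left bar PBS and right bar AKK; error bars are 95% counting intervals of the total. The tumour/epithelial bars go from 14.7 to 22.4, mostly through the fatty acid block, while the export block of macrophages goes from 8.77 to 6.46.

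In the tumour cells themselves the genes took more of the RNA in the AKK library. All 30 together were at 14.7 UMIs per 10000 in the PBS library (14.5 to 14.9) and 22.4 in the AKK library (22.1 to 22.7), a ratio of 1.52 (1.49 to 1.55). The fatty acid genes had a ratio of 1.74 (1.69 to 1.79) and the sterol enzymes one of 1.38 (1.33 to 1.43). A gene is called here when its level + 5 CPM differed at least 1.5-fold between the libraries, among genes with at least 20 UMIs. By that rule 8 of 30 genes were higher and 0 lower in the AKK library, where 2.64% of all 13243 measured genes were higher and 1.5% lower. The median log2 ratio was 0.33 over the 30 genes and 0.04 over all genes. Of the 30 genes 27 were above 0, where 7782 of all 13243 measured genes were.

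The 2 desaturase genes differed most in UMIs. Scd2 (chr19:44293674-44306864) was at 336 CPM (3802 UMIs) in the PBS and 694 CPM (5739 UMIs) in the AKK tumour cells, a ratio of 2.07 (1.98 to 2.15). Scd1 (chr19:44394455-44407879), its neighbour and close homolog, was at 62.8 and 134 CPM, a ratio of 2.14 (1.94 to 2.35). Both sit on GRCm38 chromosome 19. In tumour cells with at least 10000 UMIs, the median cell had 340 CPM of Scd2 in the PBS library (quartiles 187 and 498, 111 cells) and 623 CPM in the AKK library (quartiles 330 and 906, 86 cells). The spreads overlapped: the upper quartile of the PBS cells lay above the lower quartile of the AKK cells. After each cell was thinned to 2000 UMIs, 42.0% of 119 PBS and 64.1% of 92 AKK tumour cells had a Scd2 UMI (81.9% and 85.5% unthinned), with 36 and 18 shallower cells left out and 2.61% and 3.73% in neutrophils, whose median depths were 4937 and 4164.5 UMIs.

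**Figure D3:**
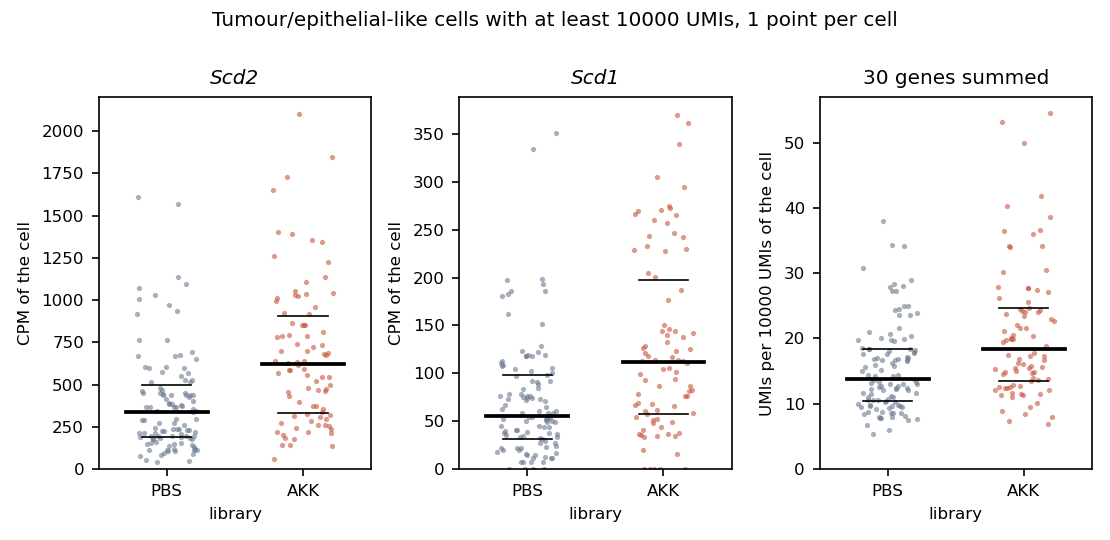
Scd2 and Scd1 in CPM of the cell, and the 30 genes summed per 10000 UMIs of the cell, in tumour/epithelial-like cells with at least 10000 UMIs (111 PBS, 86 AKK); 1 point is 1 cell, thick lines are medians and thin lines quartiles. The AKK medians are higher (623 against 340 CPM for Scd2, 111 against 55.6 for Scd1) and the clouds of points overlap.

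Of the 17 sterol enzymes 4 were called in tumour cells. Hsd17b7, which reduces sterol ketones, was at 8.92 CPM in PBS and 21.6 CPM in AKK tumour cells, a ratio of 2.43 (1.89 to 3.13). Nsdhl, which acts with Msmo1 in demethylation, was at 12.98 and 26.1 CPM, a ratio of 2.01 (1.62 to 2.498). Idi1, isopentenyl diphosphate isomerase, was at 23.5 and 45.4 CPM, a ratio of 1.94 (1.65 to 2.27), and Fdps at 77.4 and 128 CPM, a ratio of 1.66 (1.51 to 1.81). Fdft1 and Sqle, on either side of squalene, had ratios of 1.60 and 1.54 and were not called once 5 CPM was added. Of the other 11 sterol enzymes 10 had ratios between 1.06 and 1.39, and Ebp, the sterol isomerase, had 0.865 (0.768 to 0.973).

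The feedback gene Insig1 was at 26.7 CPM in PBS and 45.9 CPM in AKK tumour cells, a ratio of 1.72 (1.48 to 2.01). Stard4, a cytosolic cholesterol carrier, was at 22.0 and 40.8 CPM, a ratio of 1.86 (1.57 to 2.20), but with each cell weighted alike it was lower in the AKK library, with a log2 ratio of -0.53 (CPM + 5). The SREBP genes were closer, with ratios of 1.25 (1.06 to 1.47) for Srebf1 and 1.09 (0.994 to 1.20) for Srebf2, and Tmem97, a sterol-binding membrane protein gene, had 0.996. The early enzymes of fatty acid synthesis lay close together: Acly, Acaca and Fasn had ratios of 1.29, 1.28 and 1.27, and the elongase Elovl6 had 1.17. Abca1 was at 41.0 and 50.3 CPM in tumour cells, a ratio of 1.23 (1.07 to 1.40), and Abcg1 at 4.06 and 3.75 CPM.

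**Figure D4:**
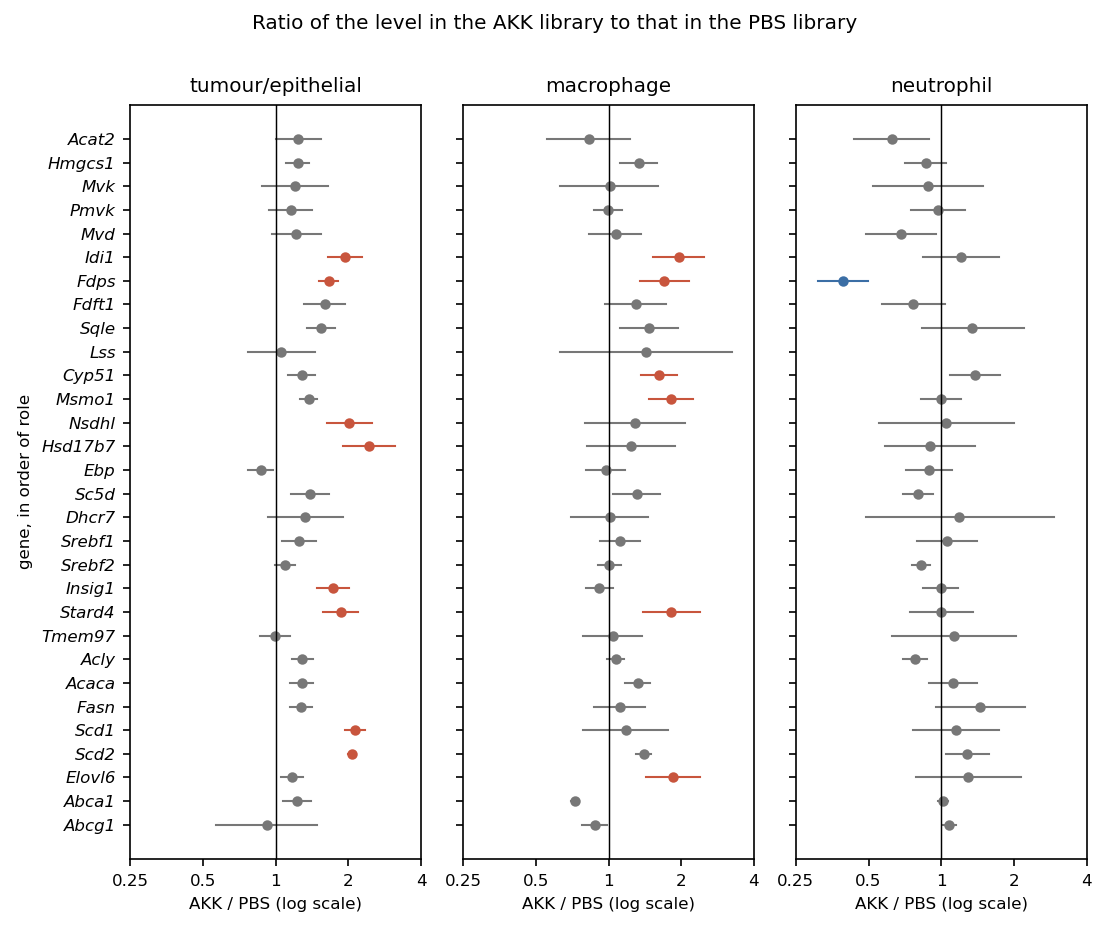
Ratio of the level in the AKK to that in the PBS library for each gene with at least 20 UMIs (points) with its 95% counting interval (lines), on a log axis, in 3 cell classes; red is called higher, blue called lower. Tumour cells hold 8 red genes, macrophages 6, and neutrophils 1 blue gene, Fdps at 0.393.

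Other values differed alongside, and the splits of the tumour cells given here were chosen after the data were seen. The 10 cell cycle genes took 8.20 per 10000 UMIs of PBS and 11.1 of AKK tumour cells, a ratio of 1.36 (1.32 to 1.40). Split at the median cell cycle share of the tumour cells, the lower part had the 30 genes at 12.8 and 21.9 per 10000 (88 and 44 cells) and the upper part at 16.3 and 22.6 (67 and 66 cells). Fdps had a ratio of 2.32 (1.95 to 2.78) in the lower and 1.34 (1.21 to 1.49) in the upper part, and Idi1 one of 3.05 (2.04 to 4.62) and 1.54 (1.29 to 1.83). In the upper part Fdps, Idi1 and Hsd17b7 did not pass the 1.5-fold rule, with Hsd17b7 at a log2 ratio of 0.0451 (CPM + 5), while Scd2 had ratios of 2.21 and 2.07 in the lower and upper part. Tumour cells with no Ptprc UMI were few and shallow, 54 and 32 cells with medians of 1419.5 and 1112 UMIs, and had the 30 genes at 14.6 and 17.2, a ratio of 1.18 (1.08 to 1.28). In them Scd1 had a ratio of 2.48 (1.68 to 3.68), Scd2 one of 1.16 (1.004 to 1.33) and Stard4 one of 0.642 (0.247 to 1.497). In tumour cells with at least 10000 UMIs the 30 genes were at 14.7 and 22.4. The cells without a Ptprc UMI gave 902839 of the 11328329 PBS and 511509 of the 8275432 AKK tumour UMIs, so the ratio of 1.52 rests mainly on cells with one. Insig1 was lower in the AKK library in the cells without Ptprc, by a log2 ratio of -1.11 (CPM + 5). Neutrophil markers summed to 1292 and 1039 CPM in the tumour class, 1.22% and 1.18% of their own class's level.

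In macrophages, synthesis genes took more and export genes less of the RNA in the AKK library. The class held 557 PBS and 495 AKK cells. Its sterol enzymes took 2.55 and 3.27 per 10000 UMIs, a ratio of 1.28 (1.21 to 1.36), and its fatty acid genes 3.87 and 4.88, a ratio of 1.26 (1.21 to 1.32). The exporters took 8.77 and 6.46, a ratio of 0.737 (0.711 to 0.763). These differences offset each other in the sum of all 30, at 16.99 and 16.5. The 8 macrophage markers summed to 5732 CPM in the PBS and 4249 CPM in the AKK macrophages, and Mrc1 among them was at 903 and 412 CPM. The make-up of the class thus may differ between libraries. The synthesis genes are not given within its clusters here.

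By the 1.5-fold rule 6 of 30 genes were higher and 0 lower in AKK macrophages, with backgrounds of 2.5% and 3.23%. Idi1 was at 11.6 and 22.7 CPM, a ratio of 1.95 (1.53 to 2.49). Elovl6, which lengthens palmitate, was at 10.5 and 19.4 CPM (1.85, 1.43 to 2.40) and Stard4 at 9.51 and 17.3 CPM (1.82, 1.39 to 2.40). Msmo1 was at 15.7 and 28.4 CPM (1.81, 1.46 to 2.24), Fdps at 13.2 and 22.5 CPM (1.70, 1.35 to 2.15) and Cyp51, lanosterol demethylase, at 24.7 and 40.2 CPM (1.63, 1.37 to 1.93). Tumour markers in macrophages were at 2.84% of the tumour level in the PBS and 3.22% in the AKK library. At those shares tumour RNA would bring 2.20 and 4.13 CPM of Fdps and 2.90 and 4.50 CPM of Msmo1, and the part of tumour RNA in these ratios was not tested. With cells under 1000 UMIs left out, or with the median of all genes set to 0, 2 of the 30 genes passed the rule, and 3 did with each cell weighted alike. Here and below, such counts under other settings stand without the share of all genes called under them.

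Abca1, which loads cholesterol onto lipid-poor lipoproteins, did not pass the 1.5-fold rule in macrophages. It was at 805 CPM in the PBS and 583 CPM in the AKK macrophages, a ratio of 0.724 (0.697 to 0.751). With finer clustering (resolution 2.0), Abca1 was lower in the AKK library in each of the 5 clusters still named macrophage, while other macrophage cells fell into clusters without a name. The unnamed clusters that scored best for macrophage or monocyte held 164, 98, 85, 79, 75 and 19 cells. Abca1 in them is not given here, so the comparison within clusters leaves out a large part of the class. Among the named clusters, 2 can serve as examples. The 2 largest named clusters went from 1084 to 757 CPM (160 and 67 cells, led by Mmp13, C1qa and Mmp12) and from 471 to 435 CPM (108 and 81 cells, led by Mmp12, C1qa and H2-Eb1). After thinning to 2000 UMIs, 66.2% of PBS and 62.1% of AKK macrophages had an Abca1 UMI (91.4% and 87.7% unthinned, 28 cells left out in each library), against 7.18% and 4.30% of T cells. Median depths were 16900 and 12427 UMIs in macrophages and 9439.5 and 8886 in T cells.

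In monocytes, too, the sterol enzymes took more of the RNA in the AKK library. Their sterol enzymes took 2.08 and 2.85 per 10000 UMIs, a ratio of 1.37 (1.26 to 1.48), in 358 PBS and 432 AKK cells. By the 1.5-fold rule 5 of 29 measured genes were higher and 0 lower, where 6.65% and 6.21% of all genes were. Idi1 was at 7.08 and 15.9 CPM, a ratio of 2.25 (1.496 to 3.44), and Cyp51 at 22.8 and 40.2 CPM, a ratio of 1.76 (1.39 to 2.23). Stard4 and Elovl6 had ratios of 1.89 and 1.81. The count was 3 at clustering resolution 2.0 and 8 with a pseudocount of 1 CPM.

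At resolution 2.0 the cells named monocyte formed a cluster of 355 PBS and 74 AKK cells and one of 16 PBS and 280 AKK cells. These clusters are not a split of the class above, which held 358 PBS and 432 AKK cells, since cells joined and left. Another 60 cells were then named nonclassical monocyte. The class values have to be read with that uneven sharing, and the values within clusters come from partly different cells. The sterol enzymes were at 2.01 and 2.48 per 10000 UMIs within the first cluster and at 2.52 and 2.81 within the second. Within the first, Idi1 was at 6.92 and 10.1 CPM, Cyp51 at 21.9 and 33.6, Stard4 at 10.4 and 16.8 and Elovl6 at 15.2 and 25.8 CPM. In the second, whose 16 PBS cells gave few UMIs of these genes, Elovl6 was at 29.03 and 24.9 CPM. Over the class, Abcg1, the transporter that lipidates formed lipoproteins, was at 83.5 and 156 CPM (ratio 1.87, 1.66 to 2.11), and Abca1 at 238 and 170 CPM (ratio 0.713, 0.653 to 0.778). Within the first cluster Abcg1 was at 80.7 and 95.2 CPM and within the second at 145 and 148 CPM. Abca1 was at 275 and 457 CPM in the first and at 87.1 and 118 CPM in the second, higher in the AKK library in both.

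Myeloid precursors, marked by granule genes such as Elane and Mpo, had the highest cell cycle share of the 8 classes (24.6 and 24.0 per 10000 UMIs). Their 30 genes took 9.70 and 11.3 per 10000, a ratio of 1.17 (1.13 to 1.21), in 140 PBS and 135 AKK cells. The 8 neutrophil markers summed to 66115 CPM in the PBS and 30464 CPM in the AKK precursors, 62.4% and 34.5% of the neutrophil level. At resolution 2.0 the cells so named formed a cluster led by Camp and Ngp (83 cells) and one led by Prtn3 and Mpo (165 cells). The make-up of the class thus may differ between libraries, and its part in the ratios was not tested. Here 5 of 30 genes were higher and 0 lower by the rule, with backgrounds of 4.71% and 3.58%. The count of higher genes was 12 with each cell weighted alike, 3 with the median of all genes at 0, and 2 with 1 lower when no doublets were removed. Scd2 was at 81.8 and 155 CPM, a ratio of 1.90 (1.69 to 2.13). Dhcr7, the reductase of the last step to cholesterol, was at 5.07 and 12.7 CPM (2.496, 1.59 to 3.99), and Nsdhl at 4.22 and 9.64 CPM (2.28, 1.38 to 3.86). Cyp51 had a ratio of 1.801 (1.38 to 2.35) and Elovl6 one of 1.63 (1.37 to 1.95).

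Neutrophils, the largest class with 2087 PBS and 2578 AKK cells, had the lowest summed level of the 23 synthesis enzymes among the 8 classes (2.68 and 2.37 per 10000 UMIs) and Fdps as their 1 called gene. The sterol enzymes took 1.76 and 1.48 per 10000 UMIs, a ratio of 0.844 (0.792 to 0.8997), and the exporters 4.63 and 4.83. By the rule 0 of 29 genes were higher and 1 lower, with backgrounds of 1.75% and 1.04%. Fdps was at 21.8 CPM (260 UMIs) in the PBS and 8.58 CPM (102 UMIs) in the AKK neutrophils, a ratio of 0.393 (0.309 to 0.496). The cluster led by the secondary granule genes Ngp and Camp had the highest level of the 7, at 73.0 CPM in 170 PBS and 24.02 CPM in 169 AKK cells. Without that cluster Fdps was at 10.1 and 5.92 CPM, a ratio of 0.585 (0.417 to 0.815), and no gene passed the rule. The other clusters shared the class unevenly: the cluster led by S100a9 and Retnlg held 418 PBS and 82 AKK cells, and that led by Acod1 and Hdc 116 PBS and 540 AKK cells.

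T cells had 3 of 30 genes higher and 0 lower, where 1.61% and 2.86% of all genes were. With no doublets removed 1 gene, Idi1, was higher, and with clusters weighted alike 1 gene was lower. Idi1 was at 4.18 CPM (19 UMIs) and 13.1 CPM (113 UMIs), a ratio of 3.13 (1.91 to 5.38). It was higher in the AKK library in each of the 3 T cell clusters, at 3.89 and 22.5 CPM in the cluster led by Ikzf2 and Rora, 5.68 and 15.6 in that led by Themis, and 2.41 and 8.44 in that led by Gm2682, which held 184 PBS and 511 AKK cells. The 3 clusters share the 19 PBS UMIs, so each PBS level rests on few. Tmem97 was at 3.52 and 8.09 CPM (2.30, 1.32 to 4.24). Scd1 was at 0.660 and 3.93 CPM, on 3 and 34 UMIs, while tumour RNA at the level of its markers would bring 1.53 and 2.48 CPM. B cells had Scd1 at 467 and 468 CPM, and B markers in T cells were at 0.239% and 0.380% of their B cell level. The part of tumour and B cell RNA in the Scd1 ratio was not tested. The cell cycle share of T cells was 4.26 and 6.56 per 10000, a ratio of 1.54 (1.46 to 1.62), and its part in these ratios was not tested. The cluster led by Ikzf2 and Rora, whose leading genes included Ctla4 and Il2ra, had the highest sterol enzyme share of the 3 in both libraries, at 2.42 and 3.36 per 10000.

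NK/ILC1 cells had 2 of 30 genes higher and 0 lower, with backgrounds of 3.15% and 4.01%, and 1 higher with no doublets removed. Elovl6 was at 75.1 CPM (225 UMIs) and 136 CPM (687 UMIs), a ratio of 1.82 (1.56 to 2.12). These were the highest Elovl6 levels of the 8 classes in both libraries, with T cells close in the PBS library at 71.0 CPM. In the AKK library Elovl6 was higher in both NK/ILC1 clusters, at 76.04 and 150 CPM in the cluster led by Gzma and at 74.1 and 108 CPM in that led by Klrb1b. Nsdhl was at 3.67 and 8.14 CPM (2.22, 1.12 to 4.78). Elovl6 was called higher in 5 of the 7 leukocyte classes (macrophages, monocytes, myeloid precursors, NK/ILC1 and B cells), Idi1 in 4 and Cyp51 in 3. None of the 30 genes was called lower in more than 1. The share of all measured genes called in as many classes is not given here, so these counts have no background.

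B cells stood out for Scd1 and for export. Scd1 was at 467 CPM (676 UMIs) in the PBS and 468 CPM (1095 UMIs) in the AKK B cells, a ratio of 1.0005 (0.908 to 1.10). It was at 6.52 CPM or less in the other 6 leukocyte classes compared here, while some classes with fewer cells had more, as given below. At the level of tumour markers, tumour RNA would bring 0.796 and 1.49 CPM of Scd1 to B cells. After thinning to 2000 UMIs, 56.5% of PBS and 56.6% of AKK B cells had a Scd1 UMI (89.6% and 88.2% unthinned), against 0.231% and 0.465% of T cells, with 9 and 8 B cells left out and median depths of 8330 and 7227 UMIs. Scd2 in the same B cells was at 38.7 and 53.0 CPM. Abcg1 was at 404 CPM in B cells of both libraries, the highest of the 8 classes, and Abca1 at 356 and 342 CPM.

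**Figure D5:**
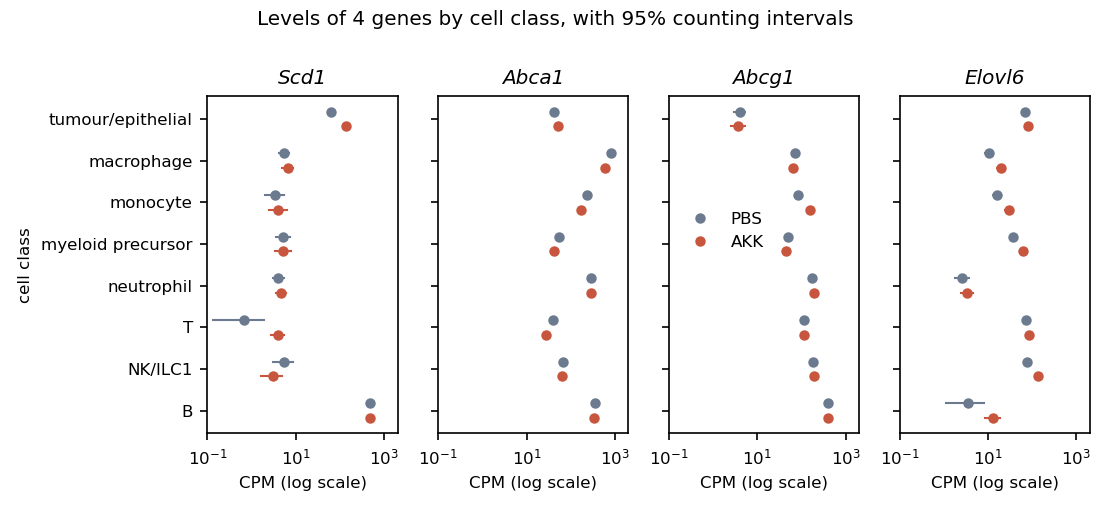
Levels of Scd1, Abca1, Abcg1 and Elovl6 in 8 cell classes in CPM on a log axis, PBS and AKK, with 95% counting intervals. Scd1 is high in B and tumour cells only among these classes, Abca1 is highest in macrophages, Abcg1 is near 4 CPM in tumour cells, and Elovl6 is lowest in neutrophils (2.60 and 3.36 CPM).

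In B cells 6 of 24 measured genes were higher and 1 lower, with backgrounds of 6.23% and 3.78%, on few UMIs. Insig1 was at 19.4 and 32.9 CPM (1.70, 1.09 to 2.72), and Srebf2, the SREBP gene of the sterol arm, was at 171 and 200 CPM, the highest of the 8 classes in both libraries. Elovl6 (5 and 30 UMIs), Idi1 (5 and 25) and Hmgcs1 (17 and 52) had intervals above 1. Those of Pmvk, Hsd17b7 and the lower gene Msmo1 (26 and 24 UMIs, ratio 0.570, 0.313 to 1.03) included 1. When at least 50 UMIs were required, 2 genes were higher, and 3 were with no doublets removed. The cell cycle share of B cells was 1.91 and 3.21 per 10000.

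Classes with fewer than 100 cells in a library are given by level. Plasmacytoid dendritic cells (42 PBS and 81 AKK cells) had the sterol enzymes at 5.60 (5.04 to 6.21) and 8.29 (7.79 to 8.81) per 10000 UMIs. That was above tumour cells, at 5.45 and 7.52, in both libraries, with overlapping intervals in the PBS library only. Their Hmgcs1 was at 46.04 and 118 CPM. Conventional dendritic cells of type 1 had the sterol enzymes at 3.65 and 5.20 and those of type 2 at 4.96 and 5.75. Pmvk reached 149.6 and 115 CPM in type 2 cells. Of their 2 clusters, the one led by Plet1 and Mgl2 (57 PBS and 73 AKK cells) had Pmvk at 172.7 and 146.6 CPM, and the one led by Cd74 and Cd209a (20 and 66 cells) at 56.2 and 60.3 CPM, near the macrophage level. In plasma cells the sterol enzymes were at 2.35 and 2.38. Scd1 was at 61.1 and 60.6 CPM in mature dendritic cells (10 PBS and 22 AKK cells), at 49.6 and 22.2 in type 1 cells and at 38.8 and 30.4 in plasma cells. In plasmacytoid dendritic cells it was at 0 and 6.35 CPM.

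Over all kept cells 0 of 30 genes passed the rule in either direction, where 1.64% of all genes were higher and 1.65% lower. The sum of the 30 was 11.9 and 12.6 per 10000 UMIs with tumour cells and 11.3 and 11.2 without them. Without tumour cells the sterol and fatty acid enzymes together took 5.28 and 6.09 per 10000, a ratio of 1.15 (1.13 to 1.17), and the exporters 4.15 and 3.15, a ratio of 0.759 (0.744 to 0.775). The mixture of classes enters these sums, since macrophages were 557 of 4636 PBS and 495 of 6172 AKK kept cells.

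A list of other genes of sterol and fatty acid metabolism was read by the same rule. In tumour cells Insig2, the second INSIG gene, was higher in the AKK library, at 23.2 and 37.8 CPM (1.63, 1.38 to 1.93), as was the desaturase Fads2, at 18.5 and 31.4 CPM (1.69, 1.41 to 2.04). Lpcat3, an LXR target that puts polyunsaturated chains into phospholipids, was lower in macrophages, at 62.8 and 37.7 CPM (0.601, 0.520 to 0.693), and in monocytes, at 68.7 and 36.0 CPM (0.524, 0.436 to 0.628). It was the 1 gene of the list called there, of 26 and of 21 measured, where 3.23% and 6.21% of all genes were lower, so these counts lie near the background. Elovl5 was lower in neutrophils, at 94.5 and 60.8 CPM (0.643, 0.585 to 0.707). It was the 1 gene called of 23 measured there, where 1.04% of all genes were lower. In NK/ILC1 cells Lbr, a sterol reductase of the nuclear envelope, was at 138 and 210 CPM (1.52, 1.36 to 1.71), and Acss2, which makes acetyl-CoA from acetate, at 26.7 and 43.5 CPM (1.63, 1.25 to 2.13). These were the 2 genes called of 20 measured there, where 3.15% of all genes were higher. Acss2 was also higher in myeloid precursors (2.70 and 9.44 CPM) and lower in B cells (18.7 and 9.82 CPM). In T cells 0 of 21 measured genes of the list met the rule, where 1.61% of all genes were higher and 2.86% lower, a count near the background.

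Across clusters, shares of synthesis genes went with that of the cell cycle genes by rank and the export share went against it. Over 27 clusters of the PBS library, the share of cell cycle genes had a Spearman rho of 0.45 with the fatty acid share, 0.32 with the sterol enzyme share and -0.59 with the export share. Over 26 clusters of the AKK library the values were 0.61, 0.38 and -0.55. Pearson's r was closer to 0 (0.26, 0.24 and -0.34 in the PBS library and 0.39, 0.14 and -0.39 in the AKK library). At resolution 2.0 rho was 0.38, 0.37 and -0.62 over 37 PBS clusters and 0.47, 0.36 and -0.43 over 40 AKK clusters, so the fatty acid and sterol arms did not stand apart in the PBS library there. These describe clusters that share a library and its free RNA, and they carry no test.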

How the data were processed

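The deposited count tables hold raw UMI counts per gene and barcode for 1 PBS and 1 AKK library. Per the file headers they were made with Cell Ranger 7.1.0; the submitters' processing notes name Cell Ranger 5.0.1 and mm10. The sources used here do not say whether introns or strand entered the counts. Read depth per UMI was not analysed here.

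Barcodes with under 200 genes or over 15% mitochondrial UMIs were removed (255 PBS, 93 AKK). Scrublet scores then removed the top 0.8% per 1000 barcodes (197 and 345); its own threshold marked 1.14% and 2.25%. Cells of both libraries were clustered in scanpy 1.11.5 (2000 variable genes, 30 components, 15 neighbours, Leiden resolution 1.0) with the 30 genes and the 28 pathway genes left out. A cluster was named where its markers scored at least 1.0 (log2), at least 3 of them were seen in 20% of its cells, and the next class lay at least 1.0 lower. The markers were fixed first and these scoring limits were set after clusters were seen. In all, 165 PBS and 47 AKK cells had no name. The tumour/epithelial markers were Krt8, Krt18, Krt19, Epcam, Cdh1, Cldn4 and Cldn6.

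UMIs were summed per class and library and scaled to CPM. Intervals are exact Poisson for levels, exact conditional binomial for ratios and exact binomial (Clopper-Pearson) for shares of cells, at 95%, from scipy 1.17.1. UMIs are not independent cells or mice, so intervals and floors (3 counts) cover counting error only. A gene was measured with at least 20 UMIs over both libraries and called at 1.5-fold on log2(CPM + 5), a scale that understates folds of low genes. Ratios printed are of CPM without the added 5. Genes are named if called with an interval that excludes 1, or to show a class or role. The ratio steps were tested on simulated counts. No test between groups was possible with 1 library each. The 30 genes, the lists and the comparisons were chosen with earlier results of these data known. Alternatives to the filters, doublet step, clustering, weighting, scaling, minimum count and pseudocount were tried. Gene coordinates came from the mm10 (GRCm38) annotation. One result on the list of other pathway genes is not reported here.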

Additional observations from a re-analysis of the deposited data

Results flagged for a closer look

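Fdps differed in opposite directions between the libraries in different classes: the AKK over PBS ratio was 1.66 in tumour/epithelial-like cells and 0.393 in neutrophils. Msmo1 had a ratio of 1.81 in macrophages and 0.570 in B cells, where its interval included 1. Both were picked out because every library value of one class lay one way and that of the other class the opposite way. With 1 library per group, the difference between the classes was not tested.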

How the results depend on the processing

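No paired analysis was possible because each group had 1 library, so no replicate could be left out either. Ratios here are log2 of AKK over PBS unless said otherwise, and where a value moved the cause was not tested. The summed 30 genes in tumour cells (0.61) were at 0.56 with the median of all genes at 0, with no doublets removed, and without mitochondrial and ribosomal protein genes in the denominator, and at 0.44 with each cell weighted alike. With each cell weighted alike they were at 0.38 in myeloid precursors (0.23 as reported) and 0.0632 in T cells (0.13), the precursor median was 0.34, Stard4 in tumour cells turned to -0.53, 3 genes were higher in macrophages and 12 in precursors, and 1 was lower in tumour cells. With the median of all genes at 0, the sum was -0.12 in macrophages (-0.04 as reported), -0.019 in monocytes, a reversal from 0.09, and 0.14 in precursors, the monocyte median was 0.14 (0.25), and 2 genes were higher in macrophages and 3 in precursors. With no doublets removed, the precursor sum was 0.14, 1 gene was higher in T cells, 1 in NK/ILC1 cells, 3 in B cells and 2 in precursors, and 1 was lower there. At resolution 2.0, 3 genes were higher in monocytes, 1 was lower in macrophages and the macrophage sum was -0.10. With a pseudocount of 1 CPM, 8 genes were higher in monocytes, 1 was lower in NK/ILC1 cells and 1 in precursors, and the macrophage median was 0.23 (0.13). Cells of at least 1000 UMIs left 2 genes higher in macrophages, at least 50 UMIs left 2 higher in B cells, and clusters weighted alike gave 1 lower in T cells. These counts stand without the share of all genes called under the same setting, so they cannot be set against a background.

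The summed 30 genes in tumour cells over the mean leukocyte class (log2 0.35 in the PBS and 0.89 in the AKK library) were at 0.48 and 0.99 without mitochondrial and ribosomal protein genes, and at 0.71 in the AKK library with each cell weighted alike. In subsets chosen after the data were seen, tumour cells below the median cell cycle share had a sum of 0.77, 13 genes higher and 0.15 over leukocytes in the PBS library, and those at or above it 0.48 and 0.50. Tumour cells without Ptprc UMIs had a sum of 0.23, a median of 0.21, 2 genes lower, Insig1 at -1.11 and Stard4 at -0.51, both reversed, and 0.51 over leukocytes in the AKK library. Without the cluster led by Ngp and Camp, 0 genes were lower in neutrophils. The counts in these subsets, too, stand without the share of all genes called in them. Counts of called genes in B cells rest on few UMIs, and with 1 library per group no value here carries the spread between mice.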
